A study of Mus musculus with 6 samples.

Results

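Histone genes were compared between primary chondrocytes that lack the microRNA gene Mir34a and wild-type chondrocytes. They were taken as every row of the deposited expression table whose symbol begins with Hist1, Hist2, Hist3 or Hist4 (the replication-dependent histones) or with H1f, H2af or H3f (the histone variants). This rule found 69 of the 10189 genes in the table, 59 replication-dependent genes and 10 variants. The replication-dependent genes comprise 5 H1, 16 H2A, 14 H2B, 12 H3 and 12 H4 genes, 49 of them in the Hist1 cluster on chromosome 13, 8 in Hist2 on chromosome 3, 1 in Hist3 on chromosome 11 and 1 in Hist4 on chromosome 6 (GENCODE M21, mouse build mm10). Of the coding genes that this annotation places in each set, 59 of 67 and 9 of 15 had a row. The tenth variant, H2afy3, is annotated by RefSeq as a transcribed pseudogene. H1fnt, H1foo, H1fx, H2afb1, Hist1h1t, Hist1h2aa, Hist1h2ba, Hist1h2bq, Hist1h4m, Hist2h2aa2, Hist2h2be, Hist3h2ba and the other H2afb genes had no row and were not analysed here.

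The knockout (KO) animals were homozygous for a global Mir34a null allele (MiR-34a -/-, model Mir34atm1.2 Mrl), and the other group carried the normal gene. Both were C57BL/6 mice aged 5 weeks, and there were 3 libraries in each group. Articular cartilage of hips and knees was pooled and digested with collagenase, and the cells were grown untreated in medium with 10% serum until confluent. All 6 libraries therefore came from cultured cells, not from cartilage directly, and the labels do not say whether the replicates came from separate animals, so p-values measure the spread between these samples only. Mir34a itself has no row in the table, and the genotype labels could not be checked on the deleted gene.

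Replication-dependent histone genes supply the H2A, H2B, H3 and H4 of the nucleosome core and the linker histone H1 during DNA synthesis. Their transcripts are made in S phase and, unlike other mRNAs, usually end in a short hairpin in place of a poly(A) tail. The stem-loop binding protein Slbp holds this hairpin, and the mRNAs are degraded when DNA synthesis stops. Variant histones are made outside S phase as well, mostly from polyadenylated mRNAs, and are placed in chromatin by their own chaperones. The libraries were made from total RNA, so that a poly(A) tail was not the basis of capture according to the kit named in the labels. Each value is a TMM-normalized CPM, that is a read count divided by an effective library size (TMM is a scaling between libraries).

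The hairpin was searched in the annotated transcripts as 16 bases after the stop codon, made of a stem of 6 bases that starts with GG, a loop of 4 bases that starts with TT, and the reverse complement of the stem. It was found in 40 of 59 replication-dependent genes, in 1 of 10 variants (H2afx) and in 0.328% of 9745 other genes of the table. The 11 replication-dependent genes with no annotated 3′ UTR could not show it, nor could Hist1h2af and Hist1h2ah, with 1 and 2 annotated bases. Of the 46 replication-dependent genes with a 3′ UTR of at least 20 bases, 40 had it. It began 22 to 59 bases after the stop codon in the replication-dependent genes, with a median of 32. The form with the stem GGCTCT and the loop TTTC was present in 24 genes. Examples of the stems and loops follow, each of them paired because the search required it. The paired stem is in capitals, as DNA, on the strand of the gene in mm10.
Hist1h1d, chr13:23555787-23555802, plus strand: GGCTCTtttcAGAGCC
Hist1h2bm, chr13:21722506-21722521, plus strand: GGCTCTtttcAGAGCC
Hist1h2bb, chr13:23747203-23747218, plus strand: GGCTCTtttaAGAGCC
Hist1h4d, chr13:23581950-23581965, plus strand: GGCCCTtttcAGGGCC
Hist1h4b, chr13:23757366-23757381, plus strand: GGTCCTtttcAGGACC
H2afx, chr9:44335240-44335255, plus strand: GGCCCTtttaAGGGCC

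Upstream sequences differed among the classes. RefSeq (GRCm38.p6) held promoters of 63 of the 69 genes, with 56 promoters of 55 replication-dependent genes because Hist1h2be has a pair. The octamer ATTTGCAT, searched on both strands, was in 6 of 14 H2B promoters, 6 of 16 H2A promoters, 0 of 5 H1, 0 of 10 H3 and 0 of 11 H4 promoters, 1 of 8 variant promoters (H3f3b) and 1.74% of the 32851 promoters of the RefSeq table. CCAAT was in 48 of 56 replication-dependent promoters, but in only 3 of 11 for H4, against 37.4% of all promoters. TATAAA was in 31 of 56, against 13.6%. No match of these 3 motifs overlapped another in the member promoters. The octamer is shown in capitals within 30 bases for H2B genes of the 2 large clusters, and for Hist1h2ah, which is read on the opposite strand of the same intergenic stretch as Hist1h2bk.
Hist1h2bm: ctctcgtctctATTTGCATaacagcgtgta
Hist2h2bb: tgtgaaacctcATTTGCATacaagctctat
Hist1h2bb: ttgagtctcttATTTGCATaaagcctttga
Hist1h2bk: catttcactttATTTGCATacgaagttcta
Hist1h2ah: tagaacttcgtATGCAAATaaagtgaaatg

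The 250 bases upstream of Hist1h2bm, the gene with the largest difference between genotypes, and of Hist1h4d, an H4 gene that DESeq2 called and one of the 3 H4 promoters with CCAAT, are shown with these 3 motifs in capitals on either strand. In Hist1h2bm CCAAT lies on both strands and the octamer lies near the start. Hist1h4d has CCAAT on the opposite strand and TATAAA beside it, and no octamer.
Hist1h2bm, chr13:21721794-21722043, plus strand: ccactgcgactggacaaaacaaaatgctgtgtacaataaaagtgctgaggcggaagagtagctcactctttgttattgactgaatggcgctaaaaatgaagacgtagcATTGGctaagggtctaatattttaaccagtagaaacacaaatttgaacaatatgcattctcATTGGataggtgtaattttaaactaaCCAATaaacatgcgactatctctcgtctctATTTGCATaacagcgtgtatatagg
Hist1h4d, chr13:23581318-23581567, plus strand: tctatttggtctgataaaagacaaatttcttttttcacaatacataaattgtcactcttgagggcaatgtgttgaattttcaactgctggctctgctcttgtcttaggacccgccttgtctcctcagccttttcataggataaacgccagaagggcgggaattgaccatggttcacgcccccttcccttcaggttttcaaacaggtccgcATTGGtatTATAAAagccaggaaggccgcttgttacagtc

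The deleted microRNA is mmu-miR-34a-5p, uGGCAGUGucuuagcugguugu (RefSeq, chr4:150068473-150068494, plus strand), with its seed of bases 2 to 8 in capitals. A match to this seed, CACTGCC in the transcript, was searched in the longest annotated 3′ UTR where that had at least 20 bases. It was present in 1 of 46 such replication-dependent genes (Hist1h1d, in an unusually long annotated transcript), 0 of 9 variants and 1807 of 9292 other genes. These UTRs had a median length of 152 bases in the replication-dependent genes, 1142 in the variants and 1456 in the other genes, so the shares are not comparable. No 3′ UTR was annotated for 11 of 59 replication-dependent genes and for the variant H2afy3.

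Libraries differed in content before any comparison of histones. From 989217 to 5266617 reads per library were recovered from the table, and 947081 to 1772185 without the rows Rn45s, Lars2 and Mir6236. In wild type 1, 59.1% of reads lay on the ribosomal RNA precursor Rn45s. The 59 replication-dependent genes held 4112 to 6594 reads per library and the 10 variants 887 to 1383. The lowest value of any member was 3.43 CPM (8 reads).

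As a group, the replication-dependent histone genes were lower in KO chondrocytes, in KO 1 and KO 2 far more than in KO 3. Their summed level was 4143, 4868 and 3400 CPM in wild type 1, 2 and 3, and 1837, 2015 and 3561 CPM in KO 1, 2 and 3. KO 1 and KO 2 lay below all wild-type libraries, whereas KO 3 lay above wild type 3. The wild-type sums averaged 4137 ± 734 CPM (SD, n = 3). Those of KO averaged 2471 ± 948 CPM (SD, n = 3), which is 59.7% of the wild-type mean. Because these are bulk libraries, fewer cells in S phase and less histone mRNA per cell cannot be told apart.

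By gene, 58 of 59 replication-dependent histones had a lower mean in KO on the log2(CPM + 0.5) scale, against 48.6% of all genes. Their median log2 fold change was −0.83, against 0.02 over all genes, and 43 lay below −0.5, as did 16.5% of all genes. At an unadjusted limma p below 0.05, 28 were lower (6.4% of all genes) and 0 were higher (4.64% of all genes). After Benjamini-Hochberg adjustment over all genes limma called 0 of 59, with a lowest adjusted p of 0.238, and it called 0.00981% of all genes. On the recovered reads, edgeR with its quasi-likelihood test had 24 of 59 lower at an unadjusted p below 0.05 (5.82% of all genes) and called 0 after adjustment (0.0196% of all genes). DESeq2 on the same reads called 5 of 59 lower and 0 higher at an adjusted p below 0.05, against 0.716% of all genes lower and 0.412% higher.

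Those 5 genes were Hist2h2bb, Hist1h1b, Hist1h4d, Hist1h1d and Hist1h2bm, with DESeq2 adjusted p of 0.00747, 0.0239, 0.04, 0.0435 and 0.0462. In 19 of 59 genes all KO libraries lay below all wild-type libraries, against 9.57% of all genes. In 0 of 59 did all KO libraries lie above, against 8.82% of all genes. The count at an unadjusted limma p below 0.05 depended on the libraries used. It was 43 without KO 3, where 7.23% of all genes were lower, 17 without KO 1 (5.39%) and 18 without KO 2 (7.8%). It was 17 without the first wild-type library (5.89%), 16 without the second (3.77%) and 29 without the third (3.94%). Leaving out both wild type 1 and KO 2 gave 11 (7.08%).

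**Figure D1:**
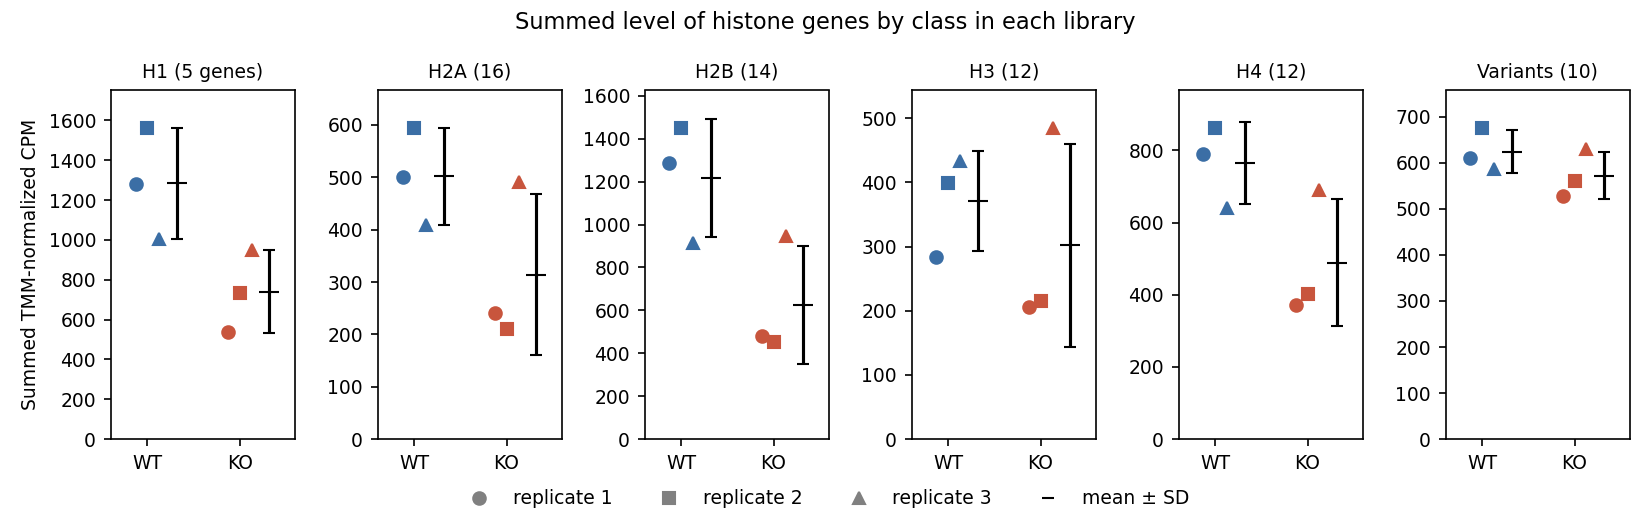
Summed TMM-normalized CPM of the replication-dependent histone genes of each class and of the 10 variants (vertical axes from 0, different scales) in wild-type (WT, blue) and KO (red) libraries. Points are libraries, marked by replicate number, and black bars are the mean ± SD of 3. KO 1 and KO 2 lie below all wild-type libraries in each of the 5 classes, while KO 3 lies inside or above the wild-type range for H2A, H2B, H3 and H4.

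The linker histones H1, which bind DNA where it enters and leaves the nucleosome, showed the difference in 5 of 5 genes, with a median log2 fold change of −1.18. Here and below, values are in the order of replicates 1, 2 and 3, wild type before KO, and parentheses hold the log2 fold change of KO against wild type with its standard error (SE) from limma. Hist1h1b was measured at 92.3, 136 and 89.1 CPM in the wild-type libraries and 36.6, 32.8 and 59.3 CPM in the KO libraries (log2 fold change −1.31, SE 0.28, adjusted p = 0.252 with limma). Hist1h1d was measured at 189, 197 and 143 CPM in the wild-type libraries and 52.7, 67.6 and 116 CPM in the KO libraries (−1.22, SE 0.29). Both had no KO library inside the wild-type range, though KO 3 came nearest to it. In 4 of the 5 genes all KO libraries lay below all wild-type libraries, against 9.57% of all genes. Hist1h1a read 106, 165 and 89.1 CPM against 37, 47 and 75.2 CPM (−1.18, SE 0.32). Hist1h1e read 427, 507 and 336 CPM against 168, 240 and 301 CPM (−0.86, SE 0.25). Hist1h1c had the smallest difference of the class and overlapped between groups. It read 468, 559 and 348 CPM in the wild-type libraries and 241, 348 and 400 CPM in the KO libraries (−0.48, SE 0.25).

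The H2B genes encode a core histone that pairs with H2A. At an unadjusted limma p below 0.05, 13 of 14 were lower, against 6.4% of all genes. The class had a median log2 fold change of −1.09, and its summed level in KO was 51.5% of the wild-type mean. Hist1h2bm, on chromosome 13, read 106, 139 and 78 CPM in the wild-type libraries and 29.4, 23.5 and 64.8 CPM in the KO libraries (log2 fold change −1.54, SE 0.38). Hist2h2bb, on chromosome 3, read 106, 119 and 78 CPM in the wild-type libraries and 35.9, 35.3 and 50.2 CPM in the KO libraries (−1.30, SE 0.25). All 381 annotated exon bases of Hist2h2bb overlap Gm20628 on the opposite strand. For these 2 genes of different clusters all KO libraries lay below all wild-type libraries, as in 6 of the 14 H2B genes and 9.57% of all genes. Hist1h2be read 151, 164 and 99.7 CPM against 48.1, 52.9 and 106 CPM (−1.05, SE 0.33), so that KO 3 passed wild type 3. Its annotated locus reaches into Hist1h1e on the same strand, and reads of the pair may be shared. Hist1h2bc, the one H2B gene above the threshold, read 135, 160 and 122 CPM against 106, 66.1 and 148 CPM (−0.45, SE 0.29). The log2 fold changes of the remaining H2B genes were −1.25 for Hist1h2bp, −1.22 for Hist1h2bl, −1.17 for Hist1h2bj, −1.14 for Hist1h2bb, −1.12 for Hist1h2bh, −1.05 for Hist1h2bf, −1.01 for Hist1h2bk, −0.96 for Hist1h2bn, −0.93 for Hist1h2br and −0.91 for Hist1h2bg.

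The H2A genes were lower on average in 16 of 16 members, with a median log2 fold change of −0.87. Of them 6 had an unadjusted limma p below 0.05, where 6.4% of all genes were lower. This count depended on the test. With edgeR 2 of 16 were lower at an unadjusted p below 0.05 (Hist1h2ao and Hist1h2ah), against 5.82% of all genes. All 16 overlap small annotated genes on the opposite strand. Hist1h2ao had the smallest p of the class, with 35.8, 39.6 and 28.1 CPM in the wild-type libraries and 13.4, 13.2 and 28.8 CPM in the KO libraries (−0.97, SE 0.36). Hist1h2ah, the divergent neighbour of Hist1h2bk, read 49, 58.7 and 32.2 CPM against 21, 14.7 and 36.7 CPM (−0.99, SE 0.38). In both genes KO 3 exceeded wild type 3. Hist1h2ak showed the same division more sharply, with 34.5, 32.8 and 31.1 CPM in wild type, against 12.2 CPM in KO 1, 8.82 CPM in KO 2 and 32.4 CPM in KO 3 (−1.08, SE 0.45). The other 3 of the 6 with limma were Hist1h2af at −1.29, Hist1h2ai at −1.19 and Hist1h2ap at −1.07. The genes of the class with the highest mean CPM lie in the Hist2 cluster. Hist2h2aa1 read 113, 132 and 80.9 CPM against 78.2, 51.9 and 125 CPM (−0.41, SE 0.33). Hist2h2ac read 46.5, 61.7 and 34.6 CPM against 20.2, 14.2 and 54.4 CPM (−0.87, SE 0.46).

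The H4 genes were lower on average in 12 of 12 members, with a median of −0.76. Of them 5 had an unadjusted limma p below 0.05, where 6.4% of all genes were lower. All 12 encode the core histone H4. Hist1h4d read 119, 120 and 95 CPM in the wild-type libraries and 51.9, 56.8 and 64.2 CPM in the KO libraries (−0.94, SE 0.20), with little spread in either group. Hist1h4b read 45.9, 70.8 and 47.5 CPM against 15.7, 23.5 and 37.3 CPM (−1.15, SE 0.35). Hist1h4c read 110, 110 and 85 CPM against 50.4, 57.8 and 77.7 CPM (−0.73, SE 0.23). In each of these 3 genes the groups did not overlap. All KO libraries lay below all wild-type libraries in 5 of the 12 genes, against 9.57% of all genes. Hist1h4k (−0.96) and Hist1h4a (−0.83) were the other 2. In Hist1h4k this was a near tie, with 42.2 CPM in both wild type 3 and KO 3. Hist1h4h and Hist1h4n had the highest mean CPM of the class, not corrected for length. Hist1h4h read 128, 119 and 100 CPM against 76.3, 67.6 and 138 CPM (−0.36, SE 0.28). Hist1h4n read 122, 102 and 86.8 CPM against 59.2, 56.8 and 130 CPM (−0.43, SE 0.32), so that KO 3 was the highest library for both.

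The H3 genes stood apart from the other classes in their values, although a difference between classes was not tested. Of 12 genes 11 were lower on average, with a median log2 fold change of −0.33. But 0 had an unadjusted limma p below 0.05, where 6.4% of all genes were lower. In 0 of 12 did all KO libraries lie below all wild-type libraries, against 9.57% of all genes, and in 0 above. Hist1h3b read 38.3, 48.8 and 46.3 CPM in the wild-type libraries and 21.8, 13.7 and 50.8 CPM in the KO libraries (−0.82, SE 0.43). Hist1h3e read 29.5, 41.1 and 37.5 CPM against 21.4, 18.6 and 33.6 CPM (−0.58, SE 0.30). In both genes KO 1 and KO 2 were below and KO 3 was inside or above the wild-type range. The genes with the highest mean CPM were Hist1h3f, with 39.6, 51.8 and 60.4 CPM against 28.2, 36.3 and 69.1 CPM (−0.27, SE 0.34), and Hist1h3c, with 37.1, 47.2 and 57.5 CPM against 18.3, 29.9 and 53.8 CPM (−0.58, SE 0.38). Hist2h3b, with 15.1, 22.1 and 23.4 CPM against 13.7, 20.1 and 39.1 CPM (0.15, SE 0.41), was the one replication-dependent gene whose mean was not lower with all 6 libraries. Its log2 fold change was −0.25 without KO 3 and −0.04 without wild type 1. Like Hist2h2bb, it overlaps the opposite-strand gene Gm20628, with all 488 of its annotated exon bases. KO 3 was the highest of the 6 libraries in 9 of 12 H3 genes, against 1392 of all 10189 genes. Wild type 1 was the lowest wild-type library in 11 of 12 H3 genes, against 6 of 47 genes of the other classes and 33.6% of all genes. The summed H3 level was 284 CPM in wild type 1, 398 CPM in wild type 2 and 433 CPM in wild type 3, while the summed H2B level was 1285, 1451 and 912 CPM in the same libraries. The wild-type libraries thus had a different order in the 2 classes.

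**Figure D2:**
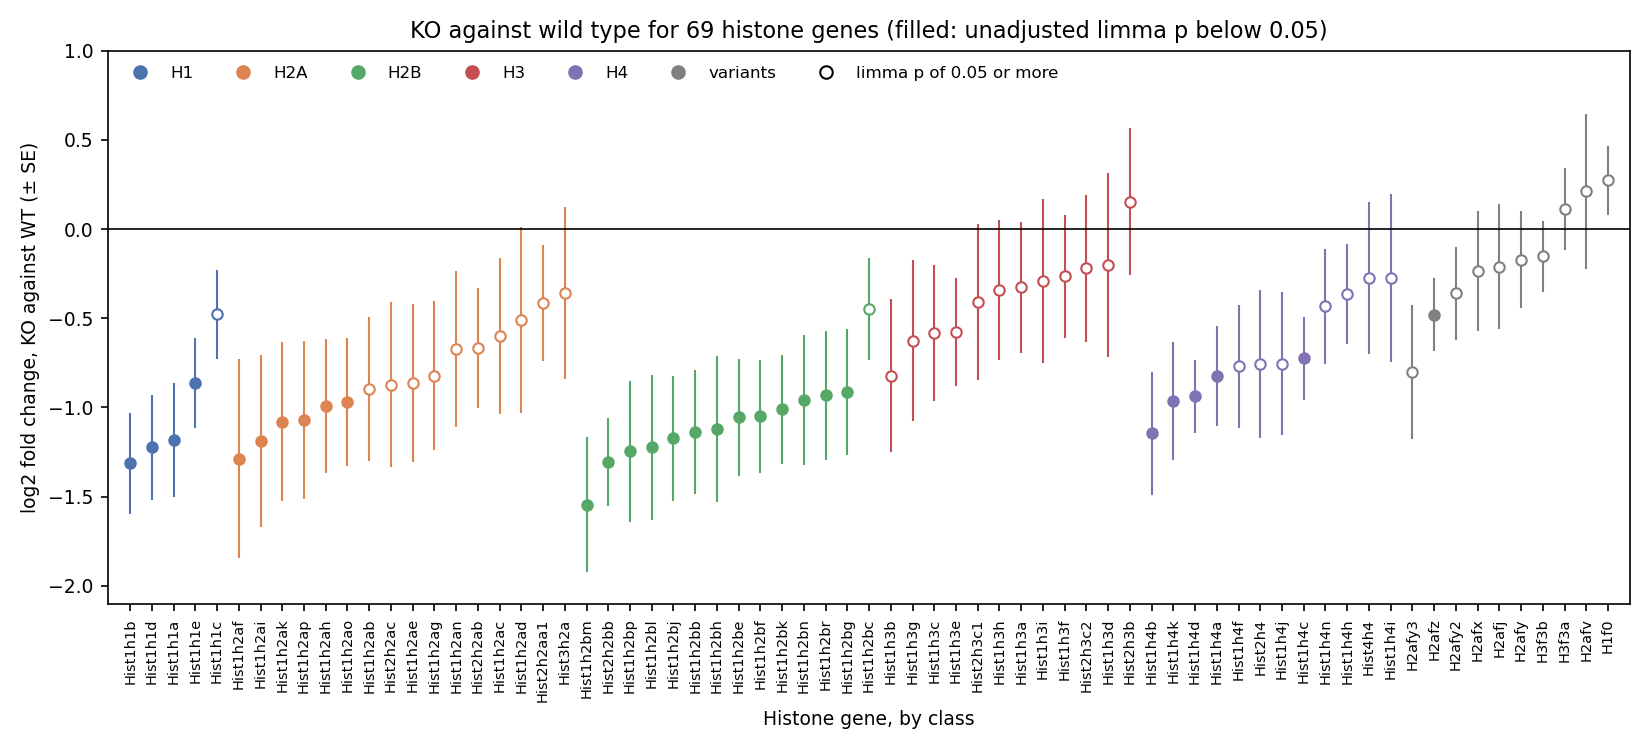
Log2 fold change of KO against wild type (vertical axis, on the log2(CPM + 0.5) scale, with its limma standard error) for each of the 69 histone genes (horizontal axis), ordered within class. Filled points have an unadjusted limma p below 0.05. They number 28 among the replication-dependent genes, 13 of them H2B genes and 0 of them H3 genes, and 1 among the variants (H2afz). Over all genes 6.4% were lower and 4.64% higher at this threshold.

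Within the KO group, KO 3 exceeded both other KO libraries in 59 of 59 replication-dependent histones, against 32.3% of all genes. In 53 of 59 KO 1 and KO 2 both lay below all wild-type libraries, against 15.5% of all genes. The wild-type range was undercut by KO 1 and by KO 2 in 56 of 59 genes each and by KO 3 in 19. Over all 10189 genes the counts were 3149 for KO 1, 2956 for KO 2 and 2742 for KO 3. For KO 3 the share among histones was thus near that over all genes. Among wild-type libraries, wild type 3 was the lowest in 42 of 59 genes, which was not counted over all genes. Wild type 2 was the highest of all 6 libraries in 38 of 59, against 1781 of all 10189 genes. The choice of library therefore changed the size of the group difference, with a median log2 fold change of −1.12 without KO 3 and −0.66 without KO 1.

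**Figure D3:**
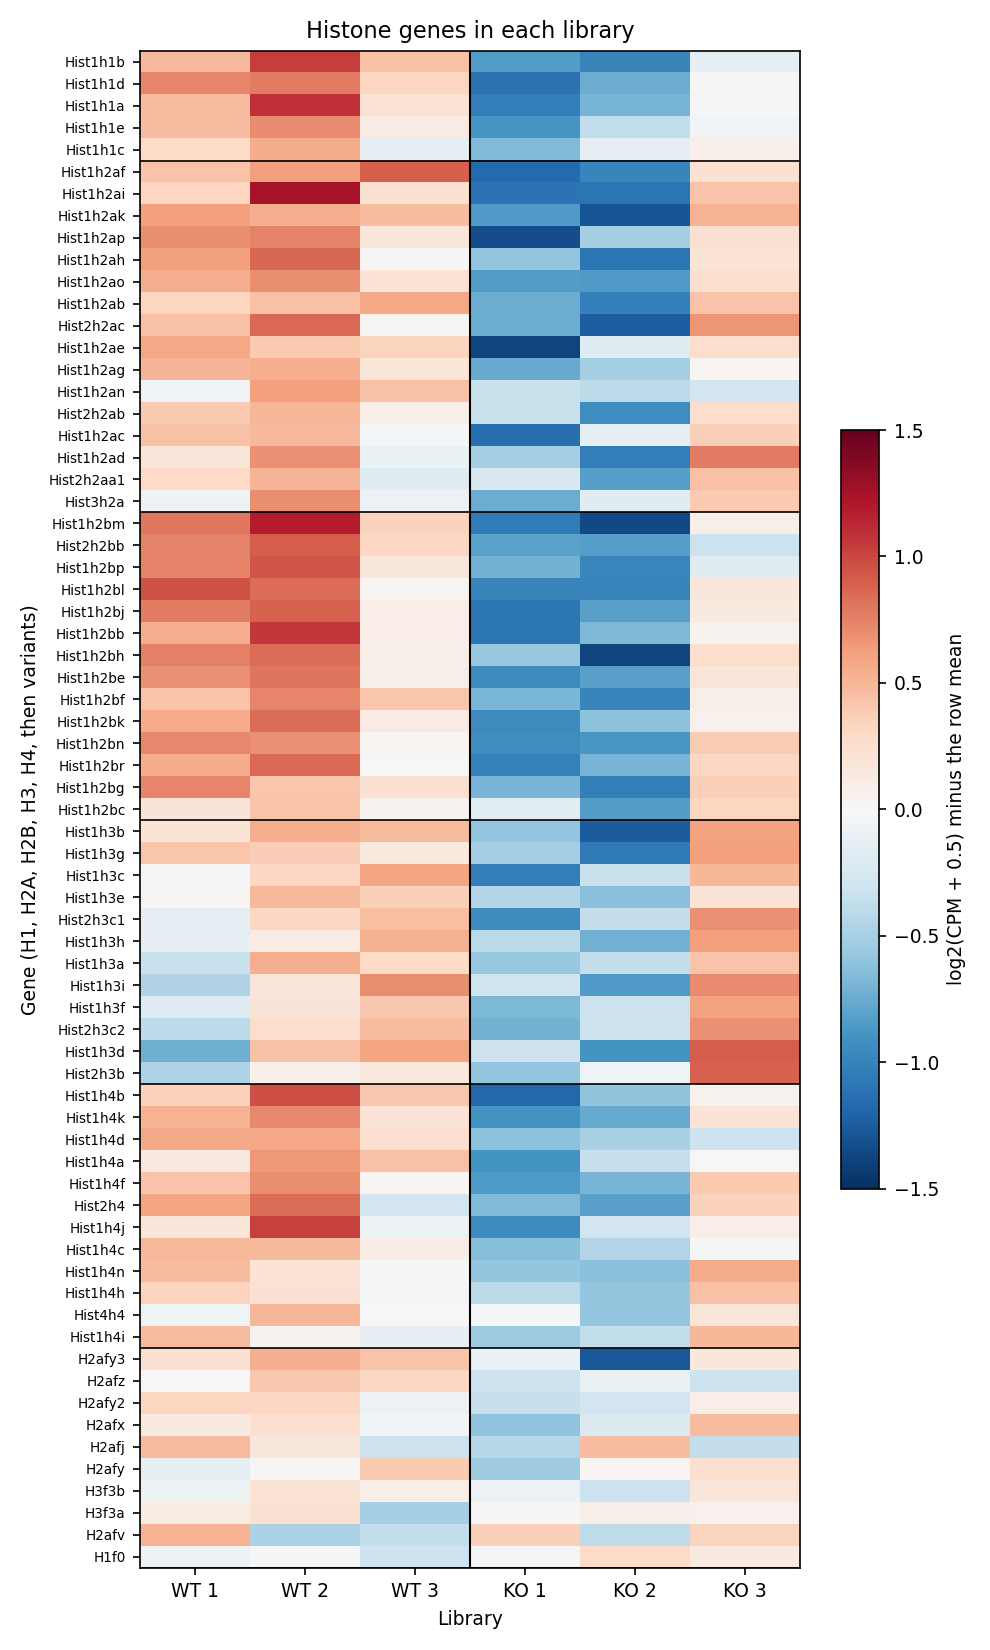
Each histone gene (rows, ordered by class and log2 fold change, variants last) in each of the 6 libraries (columns), as log2(CPM + 0.5) minus the mean of the row. Rows of the replication-dependent classes are mostly blue in KO 1 and KO 2 and paler or red in KO 3, and most H3 rows are pale or blue in wild type 1.

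Position in the genome and sequence features gave subsets of the replication-dependent genes. The 21 Hist1 genes between 21 and 23 Mb of chromosome 13 had a median log2 fold change of −0.97, the 28 from 23 Mb on −0.82, and the 8 Hist2 genes −0.54. Genes with and without the hairpin in an annotated transcript end had medians of −0.80 (40 genes) and −0.96 (19 genes). The 19 include the 11 genes with no annotated 3′ UTR. H2A and H2B genes with and without the octamer had medians of −0.95 (12 genes) and −1.05 (17 genes). In the 9 divergent pairs of an H2A and an H2B gene, whose starts lie 175 to 301 bases apart, the H2B gene had the lower log2 fold change in 6. The position subsets hold the histone classes in different shares, so their medians do not separate class from position. The differences between subsets were not tested.

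Counting limits bear on single genes of so similar a family. In 25 of 59 replication-dependent genes over 50% of the 75-base windows of the annotated transcripts were also found in another gene, so that their reads may have been split among copies. In the 34 genes with at most 50% of windows shared, 34 of 34 were lower on average, 16 at an unadjusted limma p below 0.05 (6.4% of all genes). All 5 DESeq2 calls lay there, with Hist2h2bb close to the limit at 49.8%. Whether the counting used strand is unknown here. Tsix, which lies antisense to Xist, had 8.12 to 16.5 times the CPM of Xist in the 6 libraries. Reads of a gene may therefore have been merged with, or counted for, one that overlaps it on the opposite strand. Of the 10 variants 7 share exon bases with a gene on the opposite strand, as do 36.2% of 9745 other genes of the table. Of the 59 replication-dependent genes 19 do (32.2%). The other 40 genes had a median of −0.80, with 40 of 40 lower on average. They held 20 genes at an unadjusted limma p below 0.05 (6.4% of all genes) and 4 of the 5 DESeq2 calls.

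The 10 variant genes had smaller differences between genotypes, although the difference between the 2 sets was not tested. They had 7 of 10 lower on average and a median log2 fold change of −0.19 (−0.02 without KO 1). At an unadjusted limma p below 0.05, 1 was lower (0 without wild type 2 or wild type 3), against 6.4% of all genes. All KO libraries lay below all wild-type libraries in 2 of 10 (9.57% of all genes) and above in 1 (8.82% of all genes). None of the 10 was called after adjustment by limma, edgeR or DESeq2. Their summed level was 610, 676 and 586 CPM in the wild-type libraries and 528, 560 and 629 CPM in the KO libraries, or 91.7% of the wild-type mean. The ratio of the replication-dependent sum to the variant sum was 6.79, 7.20 and 5.80 in wild type and 3.48, 3.60 and 5.66 in KO. KO 3 thus came near wild type 3 in this ratio while KO 1 and KO 2 stayed at lower values.

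H2afz encodes H2A.Z, a variant found around gene starts. It read 74.1, 98.3 and 91.5 CPM in the wild-type libraries and 59.5, 69.1 and 59.3 CPM in the KO libraries (−0.48, SE 0.21, limma adjusted p = 0.437). All KO libraries were below all wild-type libraries, and KO 3 was no higher than KO 1, unlike in the replication-dependent genes. H2afv, which encodes a close relative of H2A.Z, read 18.9, 9.14 and 9.97 CPM against 16.8, 9.8 and 16.5 CPM (0.21, SE 0.44), with overlapping groups. H2afx encodes H2A.X, which is phosphorylated at DNA breaks, and is the one variant in which the hairpin was found. It read 25.1, 27.4 and 22.3 CPM in the wild-type libraries and 14.9, 19.6 and 31.8 CPM in the KO libraries (−0.24, SE 0.34). KO 1 and KO 2 were below and KO 3 above the wild-type range. KO 3 was also the highest of the 6 libraries in 13 of 59 replication-dependent genes, against 1392 of all 10189 genes. H2afj read 33.9, 27.4 and 19.4 CPM against 17.9, 33.8 and 19 CPM (−0.21, SE 0.35).

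The macroH2A genes encode large H2A variants of repressed chromatin. H2afy read 49, 54.9 and 71.5 CPM in the wild-type libraries and 37.4, 55.4 and 64.8 CPM in the KO libraries (−0.17, SE 0.27). H2afy2 read 42.1, 41.9 and 31.7 CPM against 26.3, 27.4 and 36.1 CPM (−0.36, SE 0.26). Both overlapped between groups. The pseudogene H2afy3 read 38.3, 48 and 44 CPM against 30.5, 13.2 and 36.7 CPM (−0.80, SE 0.37), with all KO libraries below all wild-type libraries.

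H3f3a and H3f3b both encode the replacement histone H3 that is deposited outside S phase. H3f3a read 104, 113 and 68 CPM in the wild-type libraries and 98.1, 102 and 101 CPM in the KO libraries (0.11, SE 0.23). H3f3b read 136, 165 and 154 CPM against 135, 115 and 162 CPM (−0.15, SE 0.20), so that neither gene separated the groups. H1f0, a linker histone typical of cells that have left the cell cycle, read 88, 91.4 and 74.5 CPM in the wild-type libraries and 91.6, 114 and 102 CPM in the KO libraries (0.27, SE 0.19, limma adjusted p = 0.601). It was the one histone gene for which all KO libraries lay above all wild-type libraries.

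Genes that make, process and carry histones were examined as lists. Of 28 genes for histone transcription and mRNA processing, 23 had a row. Of these 8 were lower and 15 higher on average, with a median log2 fold change of 0.23 and a range of −0.34 to 1.90. At an unadjusted limma p below 0.05, 0 were lower (6.4% of all genes) and 0 higher (4.64% of all genes). In 1 of the 23 all KO libraries lay above all wild-type libraries (8.82% of all genes) and in 0 below (9.57% of all genes). Slbp, which binds the hairpin, read 60.3, 42.7 and 62.1 CPM in the wild-type libraries and 39.7, 42.1 and 46.5 CPM in the KO libraries (−0.34, SE 0.24). Npat, the coactivator of histone gene transcription in S phase, read 45.2, 37.3 and 56.9 CPM against 50.4, 54.9 and 47.7 CPM (0.15, SE 0.24). Casp8ap2, a component of the histone locus body, read 84.8, 61 and 55.1 CPM against 52.7, 61.2 and 48.9 CPM (−0.28, SE 0.24). These 3 genes overlapped between groups.

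Of 38 histone chaperone and deposition genes 34 had a row, 22 of them lower on average with a median of −0.10. Over both lists limma gave 6 of 57 genes an unadjusted p below 0.05, all lower in KO, where 6.4% of all genes were lower, and 0 were called after adjustment by limma, edgeR or DESeq2. The count of 6 was 1 without KO 2 or without wild type 2, and 2 without wild type 1 or without wild type 3. Asf1a, a chaperone of H3 and H4, had the smallest p, with 126, 124 and 116 CPM in the wild-type libraries and 61.8, 75 and 78.9 CPM in the KO libraries (−0.77, SE 0.19, limma adjusted p = 0.273). Chaf1a, a subunit of the CAF-1 complex that loads H3 and H4 behind the replication fork, read 34.5, 35.8 and 30.5 CPM against 24.8, 13.7 and 22.6 CPM (−0.75, SE 0.30). Nasp, which holds soluble H3 and H4, read 64.7, 66.3 and 58 CPM against 45.8, 29.9 and 50.2 CPM (−0.61, SE 0.25). In these 3 genes all KO libraries lay below all wild-type libraries, KO 3 included. The same held in 9 of the 34 genes with a row, against 9.57% of all genes. Dek (−0.64) and Set (−0.46) were also among the 6 genes with an unadjusted limma p below 0.05. Supt16, a subunit of the FACT complex, had a log2 fold change of −0.37. Chaf1b, the partner of Chaf1a, had a log2 fold change of 0.70 (SE 0.56) and Cenpa, the centromeric H3, of 0.95 (SE 0.64), with 3.14 to 14.1 CPM across the libraries of both. For Hira and Daxx, which deposit the replacement H3, it was −0.22 (SE 0.51) and −0.37 (SE 0.32). Asf1b had no row.

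Genes of DNA replication and of cycling cells were read in the same libraries. Of 53 S phase genes 38 had a row, 31 of them lower on average, with a median log2 fold change of −0.50 and 8 at an unadjusted limma p below 0.05, against 6.4% of all genes. Without KO 3 this count was 13, against 7.23%. In 13 of the 38 all KO libraries lay below all wild-type libraries, against 9.57% of all genes. Their summed level was 96.5%, 108% and 95.8% of the wild-type mean in wild type and 69.9%, 61.2% and 87.1% in KO. The log2 fold change was −0.99 (SE 0.30) for Mcm2 and −1.17 (SE 0.32) for Mcm3, subunits of the replicative helicase, and −0.87 (SE 0.23) for Rfc4, of the clamp loader. Pcna, the sliding clamp, read 88, 99 and 75.6 CPM against 71.8, 49 and 109 CPM (−0.26, SE 0.29), with KO 3 the highest library. Ccna2, the S phase and G2 cyclin, read 386, 465 and 440 CPM against 258, 232 and 298 CPM (−0.71, SE 0.18) and was called lower by DESeq2 (adjusted p = 0.0441). Ccne1 and E2f1 had no row.

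The proliferation marker Mki67 read 707, 730 and 566 CPM in the wild-type libraries and 324, 317 and 483 CPM in the KO libraries (−0.85, SE 0.22), with KO 3 again the highest of the KO libraries. Top2a, a topoisomerase of G2 and mitosis, read 302, 325 and 314 CPM against 203, 159 and 192 CPM (−0.77, SE 0.18), and KO 3 lay below KO 1. DESeq2 called both lower (adjusted p = 0.0468 and 0.0279). Relative to the wild-type mean, KO 3 thus stood at 86.1% for the replication-dependent histones, 72.4% for Mki67 and 61.2% for Top2a.

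**Figure D4:**
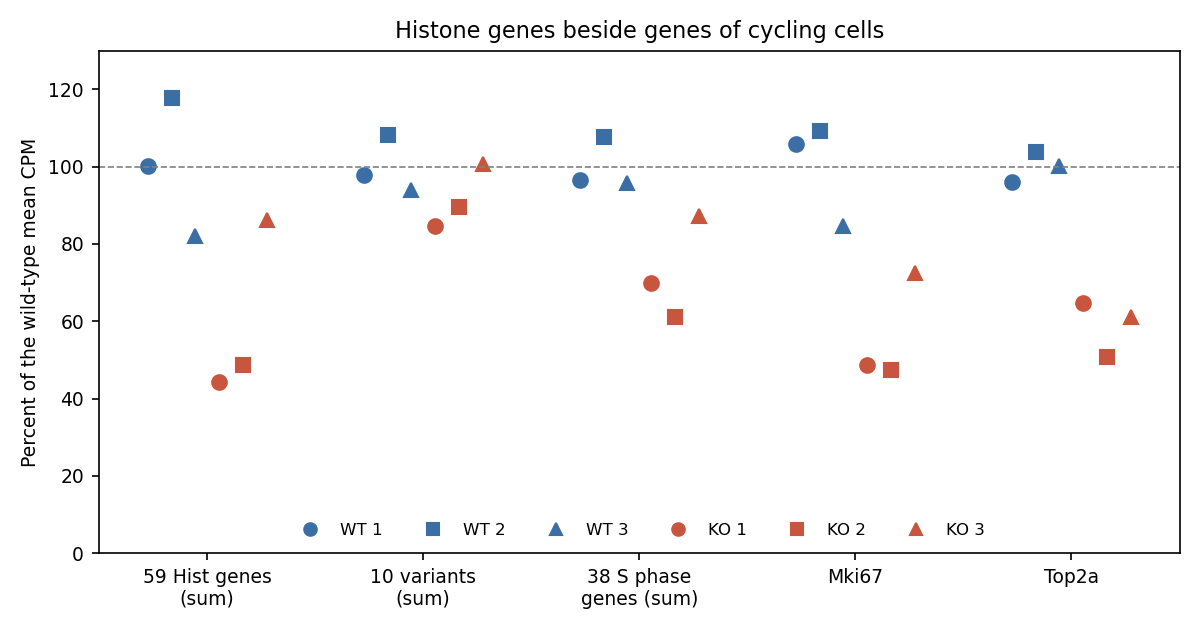
Each library's level as a percentage of the wild-type mean CPM (vertical axis from 0, dashed line at 100) for the 59 replication-dependent histones, the 10 variants, the 38 S phase genes, Mki67 and Top2a. Blue points are wild-type and red points KO libraries, with a symbol for each replicate number. For the replication-dependent histones KO 1 and KO 2 lie at 44.4% and 48.7% and KO 3 at 86.1%.

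Markers of cell types also moved between libraries, and their part in the histone values was not tested. The summed level of the 11 chondrocyte markers with a row (of 12 listed) was 2315 to 3589 CPM in wild-type libraries and 3650 to 6672 CPM in those of KO, and 0 of the 11 were at 0 in any library. The 15 macrophage markers (of 15) summed to 5655 to 6609 CPM in wild type, but to 1139, 16100 and 3844 CPM in KO 1, 2 and 3. Of these 13 of 15 had a lower mean on the log scale in KO. KO 1 was the lowest of the 6 libraries for 15 of the 15 markers, and KO 2 was the highest for 13 of them. Lyz2 alone made up 12160 CPM of the sum in KO 2. Mrc1, at 212 CPM there against 361 to 670 CPM in wild type, was the 1 marker below the wild-type range in KO 2. The 6 mural cell markers (of 8) summed to 409 to 497 CPM against 134 to 278 CPM in KO. Of these 5 had a lower mean on the log scale in KO. Cspg4 went the other way, with 15.2 to 20.1 CPM in wild type against 25.5 to 58.1 CPM in KO. The 6 osteoblast markers (of 7) summed to 655 to 1991 CPM against 2932 to 3914 CPM in KO, with Bglap and Bglap2 at 0 in all wild-type libraries. Of 7 neutrophil markers 4 had a row. S100a8 and S100a9 were at 0 in all KO libraries, Mmp8 read 15.1 to 22.3 CPM in wild type against 3.05 to 5.51 CPM, and Lcn2 overlapped between groups, with 101 to 315 CPM against 71.0 to 214 CPM. Of 5 endothelial markers 2 had a row, Pecam1 and Cdh5, both at 0 in KO 1 and KO 3. In KO 2 their summed level was 43.6 CPM, above that of every wild-type library. Of 6 erythroid markers only Alas2 had a row.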

How the data were processed

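RNA-seq of total RNA gave 3 KO and 3 wild-type chondrocyte libraries. Per the submitters' processing notes, bcl2fastq, cutadapt 1.18, HISAT2 2.1.0, StringTie 1.3.5, edgeR and the build mm10 were used. The sources used here do not give the annotation, the strand setting or the filter rule. Per the name of the table, its deposited values are TMM-normalized CPM, a signal made by the authors. The second highest value of each row was at least 7.35 CPM. All values (100%) were whole multiples of a step of 0.382 to 0.762 CPM per library (tolerance 0.001 reads), so reads were recovered. The design had assumed plain CPM, and the same log-scale test was kept.

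KO was compared with wild type with limma 3.58.1 (R 4.3.3) with a trend, two-sided, on log2(CPM + 0.5). The p-values were adjusted by Benjamini-Hochberg over 10189 genes and called at 0.05. The quasi-likelihood test of edgeR 4.0.16 and DESeq2 1.42.0 on recovered reads were alternatives. DESeq2 called 42 genes higher and 73 lower, and edgeR called 2 in all. Other alternatives were the pseudocount, a filter, 2 scalings, limma without trend or robust, a replicate block, a threshold of 0.1 and leaving out libraries. Leaving out wild type 1 and KO 2 together was added after the data were seen. The fits were first tested on simulated data. Between replicates chi-square per degree of freedom was 10.5 to 215, so no 2 libraries were the same within sampling noise. Python 3.11.15 served for the other steps.

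The members, the lists and their tests were chosen with earlier results of these data known. Named were each variant, in each class the 2 replication-dependent genes of smallest limma p and the 2 of highest mean, any such gene with an unadjusted p below 0.05, and set genes of the lists with those of smallest p. Hist2h3b was named after its values were seen. A gene of the chaperone list that met the rule is not reported here.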

Additional observations from a re-analysis of the deposited data

How the results depend on the processing

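The number of replication-dependent histones with a lower mean in KO was 56 to 59 of 59 under the scalings, tests and left-out libraries that tested all of them, and their median log2 fold change was −0.66 to −1.12 when a library was left out. The count at an unadjusted limma p below 0.05 (28) ranged from 16 to 43 with a library left out and was 11 without wild type 1 and KO 2, and adjusted calls numbered 5 with DESeq2 and 0 otherwise. Over all genes, higher calls (0) became 7 without trend, 1 with robust limma, 42 with DESeq2, 1 at a threshold of 0.1 and 0 to 7 with a library left out (7 without KO 2). Lower calls (1) became 2 with a pseudocount of 2, 3 without trend, 3 with robust limma, 2 with edgeR, 73 with DESeq2, 4 at a threshold of 0.1, 2 without wild type 1 and KO 2, and 0 to 25 with a library left out (25 without KO 2).

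For the variants, the median (−0.19) ranged from −0.31 to −0.021 with a library left out. Their count at an unadjusted p below 0.05 (1) was 0 with library total scaling, quantile normalization, no trend or DESeq2, and 0 to 1 with a library left out. For processing and chaperone genes the median (−0.01) became −0.13 with a mean of at least 20 CPM, 0.052 with library total scaling, 0.00565 with quantile normalization, 0.028 without wild type 1 and KO 2, and −0.067 to 0.00552 with a library left out. The cause was not tested. Their count (6) became 3 with library total scaling, 2 without trend, 2 with DESeq2, 1 without wild type 1 and KO 2, and 1 to 6 with a library left out. The S phase count (8) was 6 to 13 with a library left out.

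Of 69 genes named by the rule, 6 changed sign with a library left out. The values ran from −0.34 to 0.053 for H2afy, −0.53 to 0.00708 for H2afx, −0.11 to 0.25 for H3f3a, −0.63 to 0.00676 for Hist1h3f, −0.39 to 0.063 for Hira and −0.55 to 0.023 for Pcna, which was 0.030 without wild type 1 and KO 2. Hist2h3b, named outside the rule, ran from −0.25 to 0.49. A further 26 genes moved by over 1.5 times without a change of sign, 11 of them replication-dependent (Hist1h3b from −1.33 to −0.41, for example) and none of them called after adjustment. For Mki67, Top2a, Ccna2 and the 5 histones called, the adjusted p passed the threshold with DESeq2 only.

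The labels do not say that replicate numbers pair the samples. Deviations from the group mean had correlations of 0.02, 0.07 and −0.06 between same-numbered libraries 1, 2 and 3. Only for number 2 was the same-numbered KO library the best match of the wild-type library. Such correlations cannot exclude a shared preparation. With the replicate block limma called 0 genes lower over all genes, 26 replication-dependent histones at an unadjusted p below 0.05 (25 of the 28 among them) and 0 variants. With 3 libraries per group and 947081 to 1772185 reads outside ribosomal rows, depth limits single genes: the lowest member value rested on 8 reads.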
